A study of Mus musculus with 8 samples.

Results

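The genes described here were 36 genes of the cell cycle and DNA replication, chosen by name from knowledge of the pathway. All 36 were found among the 22869 genes of the count table, and all 36 passed the filter on low counts that left 15002 genes for testing. Their transcripts were counted by RNA-seq of poly(A) RNA in inguinal white fat, a depot under the skin of the mouse groin. Mice with a Fabp4-Ebf2 transgene (4 libraries) were compared with wild-type mice (4 libraries). Both groups were of mixed background strain, about 6 weeks old, and were kept on normal chow at room temperature. EBF2 is a transcription factor of brown and beige fat cells, and the study's title names the recruitment of beige adipocytes as its question. Fabp4 regulatory sequence drives the transgene according to its name. Fabp4 itself is expressed in adipocytes and also in some endothelial cells and macrophages. The labels give neither the number of founder lines nor whether different animals gave the libraries. A p-value here therefore reflects only how these samples vary, which may be technical. The submitters state that lymph nodes were taken out before RNA was prepared. Library totals were 18401533 to 24653335 reads in the Fabp4-Ebf2 group and 16894205 to 24084491 reads in the wild-type group. Ebf2 averaged 438 ± 148 CPM (reads scaled to library size, with TMM factors) in Fabp4-Ebf2 fat and 27.9 ± 9.30 CPM in wild-type fat (SD, n = 4 each), so the labels matched the targeted gene. All 12 adipocyte markers looked at were detected in every library, with Adipoq, an adipocyte hormone gene, at 1698 to 2296 CPM in Fabp4-Ebf2 fat and 2240 to 3269 CPM in wild-type fat.

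Dividing cells switch these genes on in waves. E2F factors turn on genes of S phase, such as the MCM helicase and the enzymes that make deoxynucleotides, while FOXM1 and the MuvB complex turn on genes of mitosis, such as cyclin B and the mitotic kinases. In resting cells the DREAM complex, which contains E2F4, a pocket protein and MuvB, holds both sets down. It reaches them through E2F sites and through the cell cycle genes homology region (CHR), which often lies near CCAAT boxes bound by NF-Y. Mature adipocytes are regarded as mostly non-dividing, so in whole fat such transcripts are usually looked for in precursors, blood vessel cells and immune cells.

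Promoter sequence was taken from RefSeq (GRCm38.p6), which held 30 windows for 29 of the 36 genes, each from 250 bases before to 50 bases after a transcript start. Without a window were Ccna2, Ccne2, Mcm4, Foxm1, Aurkb, Kif20a and Tpx2. The motifs searched on both strands were E2F (TTTCCCGC, TTTCGCGC, TTTGCCGC or TTTGGCGC), CHR (TTTGAA or TTCGAA) and CCAAT. The E2F spellings can overlap each other on opposite strands and were then counted at each position. An E2F match lay in 5 of the 30 windows (16.7%), against 2.26% of all 32851 windows in the table. A CHR match lay in 15 of 30 (50%), against 19.2% of all windows, and a CCAAT match in 24 of 30 (80%), against 37.4%. The E2F matches were in Mcm3, Mcm5, Mcm6, Mcm7 and Cdk1, while the CHR matches were in Bub1, Bub1b, Ube2c, Aurka, Cdc20, Cenpa, Mcm2, Mcm7, Plk1, Mki67, Kif23, Ccnb2, Cdk1, Top2a and Kif11. A match is a description of the letters and not a measured site. The 180 bases before the start are printed for 8 genes. Cdk1 (chr10:69352913-69353092, minus strand) and Mcm7 (chr5:138171884-138172063, minus strand) are shown because they held both E2F and CHR letters. Mcm5 (chr8:75109329-75109508, plus strand) and Mcm6 (chr1:128359706-128359885, minus strand) stand for replication genes with E2F letters. Ube2c (chr2:164769749-164769928, plus strand), Cdc20 (chr4:118437344-118437523, minus strand), Kif11 (chr19:37376202-37376381, plus strand) and Top2a (chr11:99024190-99024369, minus strand) stand for mitotic genes with CHR letters close to the start, and these last 6 were picked after the matches were seen. The sequences run 5′ to 3′ on the gene's strand and capitals mark E2F, CHR and CCAAT letters on either strand.
Cdk1: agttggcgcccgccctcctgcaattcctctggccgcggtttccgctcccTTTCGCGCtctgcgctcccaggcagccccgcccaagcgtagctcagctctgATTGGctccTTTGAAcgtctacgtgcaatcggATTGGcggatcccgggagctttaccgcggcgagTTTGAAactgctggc
Mcm7: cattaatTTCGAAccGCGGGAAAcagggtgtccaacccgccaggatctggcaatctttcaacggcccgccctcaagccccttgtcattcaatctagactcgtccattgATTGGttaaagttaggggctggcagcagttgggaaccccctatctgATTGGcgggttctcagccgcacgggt
Mcm5: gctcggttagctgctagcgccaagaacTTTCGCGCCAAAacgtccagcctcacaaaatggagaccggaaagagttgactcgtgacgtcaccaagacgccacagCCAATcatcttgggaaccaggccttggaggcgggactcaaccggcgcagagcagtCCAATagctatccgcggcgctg
Mcm6: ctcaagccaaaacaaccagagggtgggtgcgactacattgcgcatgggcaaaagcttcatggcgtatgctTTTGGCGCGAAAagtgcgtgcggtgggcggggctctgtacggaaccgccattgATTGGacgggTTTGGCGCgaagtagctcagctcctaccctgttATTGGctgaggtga
Ube2c: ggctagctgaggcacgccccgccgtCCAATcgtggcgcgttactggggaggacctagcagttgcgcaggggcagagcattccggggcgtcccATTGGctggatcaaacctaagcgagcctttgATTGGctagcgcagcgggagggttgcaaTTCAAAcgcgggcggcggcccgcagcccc
Cdc20: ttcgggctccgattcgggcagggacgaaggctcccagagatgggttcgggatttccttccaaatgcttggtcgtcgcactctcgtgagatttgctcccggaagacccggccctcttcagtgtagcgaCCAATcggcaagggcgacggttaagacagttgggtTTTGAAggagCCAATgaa
Kif11: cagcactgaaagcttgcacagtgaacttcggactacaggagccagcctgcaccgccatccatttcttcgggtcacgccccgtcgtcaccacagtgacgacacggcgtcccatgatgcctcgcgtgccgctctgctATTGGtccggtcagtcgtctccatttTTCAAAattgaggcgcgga
Top2a: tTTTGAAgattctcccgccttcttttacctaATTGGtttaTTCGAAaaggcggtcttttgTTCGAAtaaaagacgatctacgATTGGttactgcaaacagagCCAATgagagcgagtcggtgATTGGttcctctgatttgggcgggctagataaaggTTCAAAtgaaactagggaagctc

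None of the 36 genes passed the test between genotypes, yet every one of the 36 had a lower mean in Fabp4-Ebf2 fat. The quasi-likelihood test of edgeR, adjusted by Benjamini-Hochberg over 15002 genes, called 0 of the 36 at 0.05. It called 3.42% of all genes, 2.8% higher and 0.62% lower. Adjusted p-values ran from 0.128 for Tk1 to 0.915 for Mcm7. At an unadjusted p under 0.05 there were 3 of the 36, namely Tk1, Mcm5 and Mcm3, all lower (edgeR), against 7.27% of all genes lower and 17.5% in either direction at that level. DESeq2 called 0 of the 36, where it called 7.36% of the genes to which it gave an adjusted p. With limma-voom 0 of the 36 were called, against 454 of all 15002 genes. By the FDR of the authors' deposited table, none of the 36 was under 0.05, where 6.14% of all genes tested were, and Tk1 was again the smallest at 0.405. The share of genes with a log2 fold change below 0 was 51.6% over all genes tested and 36 of 36 here. The median log2 fold change of the 36 was -0.24, with a range of -0.49 to -0.03, and that of all genes tested was -0.01. In 3 genes, Mcm3, Mcm4 and Tk1, all Fabp4-Ebf2 libraries lay below all wild-type libraries, as they did for 4.07% of all genes. The 95% intervals reached down to -1.07 (Ube2c) and up to 0.35 (Top2a), and all but those of Mcm3, Mcm5 and Tk1 included 0. The genes share the same 8 libraries, so their common direction is not 36 separate observations.

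**Figure D1:**
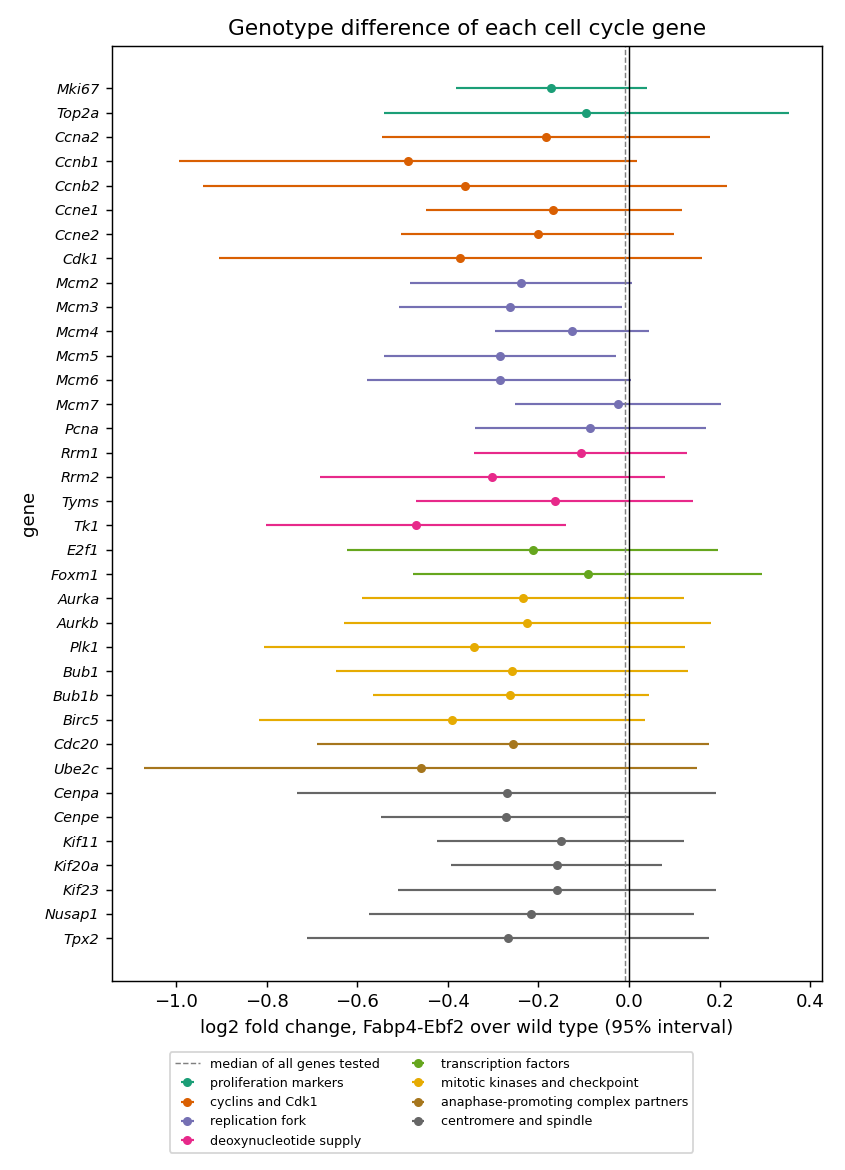
Log2 fold change of each cell cycle gene, Fabp4-Ebf2 over wild type, with its 95% interval from edgeR (n = 4 libraries per genotype). Points lie between -0.49 and -0.03, left of the line at 0, and the intervals of Mcm3, Mcm5 and Tk1 end below 0. The dashed line is the median of all genes tested.

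The size of this shift depended more on wild type replicate 2 than on any other single library. It had the highest level of all 8 libraries in 34 of the 36 genes, against 25.5% of all genes tested. The exceptions were Pcna, highest in wild type replicate 3, and Mki67, highest in wild type replicate 1 by a narrow margin. Summed over the 36 genes, reads made up 0.0608, 0.0744, 0.0590 and 0.0603% of the Fabp4-Ebf2 libraries in replicates 1 to 4. In wild type they made up 0.0697, 0.0962, 0.0676 and 0.0696%. Replicate 2 was therefore the highest library of both genotypes, and Fabp4-Ebf2 replicate 2 lay above the 3 remaining wild-type libraries. Among Fabp4-Ebf2 libraries, replicate 2 was the highest in 29 of the 36 genes, against 28.7% of all genes tested. Without wild type replicate 2 the median log2 fold change was -0.11 and 33 of 36 genes were still below 0 (50.7% of all genes). In that setting 0 of the 36 passed in edgeR, where 519 of all 15083 genes tested did. Top2a (0.055) and Foxm1 (0.048) were then among the 3 of the 36 genes above 0. Without Fabp4-Ebf2 replicate 2 the median was -0.30 and 0 of the 36 passed adjustment in edgeR, where 918 of all 15091 genes tested passed. By the mean log2 CPM of the 36 genes, the genotype difference was -0.225 with all libraries and -0.112 without wild type replicate 2. It was -0.178 when replicate 2 of both genotypes was left out. In bulk tissue, fewer cells of a type and less RNA per cell cannot be told apart.

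**Figure D2:**
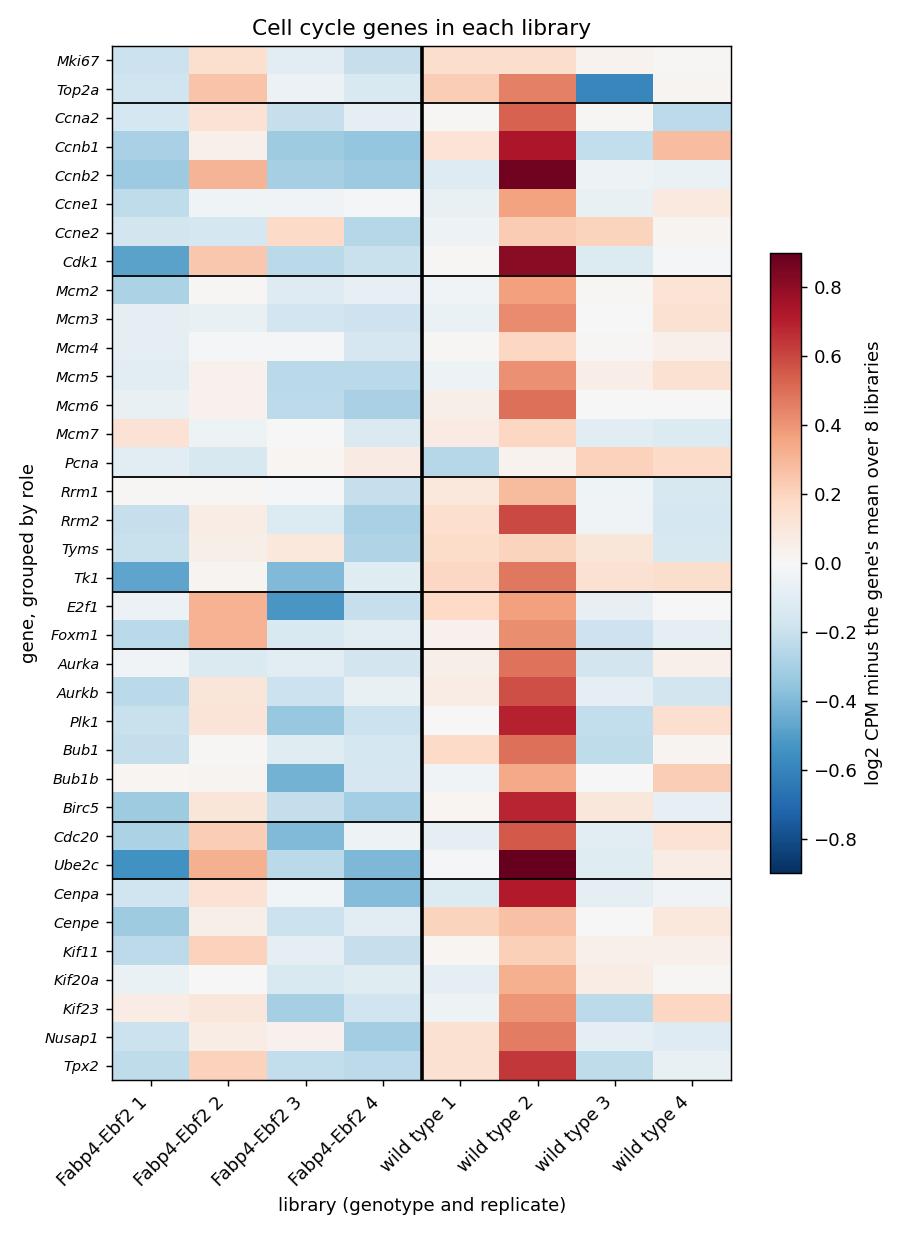
Log2 CPM of each gene minus its own mean over the 8 libraries, with genes in rows grouped by role and libraries in columns. The column of wild type replicate 2 is the reddest in 34 of 36 rows, and Fabp4-Ebf2 replicate 2 is the highest of its genotype in 29.

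Among the cyclins and Cdk1, the kinase and its partners that drive entry into S phase and mitosis, the median log2 fold change was -0.28 over 6 genes and 0 passed. Cdk1, the catalytic kinase of mitosis, stood at 6.52, 10.7, 7.68 and 7.89 CPM in Fabp4-Ebf2 replicates 1 to 4, against 9.14, 16.0, 8.36 and 8.98 CPM in wild type. Only replicate 2 of each genotype lay above 10 CPM, and the groups overlapped. The log2 fold change of Cdk1 was -0.37 (SE 0.24, edgeR adjusted p = 0.445). Ccnb1, encoding cyclin B1, had 2.13, 2.68, 2.08 and 2.04 CPM in Fabp4-Ebf2 fat and 2.84, 4.30, 2.23 and 3.15 CPM in wild-type fat. It had the largest log2 fold change of the 36 genes, -0.49 with an SE of 0.225 (edgeR adjusted p = 0.2995). It also had the fewest reads, 36 in its lowest library, where counting error alone is 16.7%. Ccnb2, encoding cyclin B2, showed the replicate pattern most plainly: it had 5.67, 8.80, 5.78 and 5.68 CPM in Fabp4-Ebf2 fat and 6.56, 13.0, 6.88 and 6.84 CPM in wild type. Its wild type replicate 2 was 1.92 times the mean of the 3 remaining wild-type libraries, the highest such ratio of the 36. The G1/S cyclin gene Ccne1 varied less, at 10.5, 12.0, 12.0 and 12.1 CPM in Fabp4-Ebf2 fat and 11.7, 15.8, 11.7 and 13.1 CPM in wild type. The log2 fold changes of Ccne1, Ccne2 and the S and G2 phase cyclin gene Ccna2 were -0.17, -0.20 and -0.18. Exons of Ccne2 share 609 bases with Ints8, and those of Ccna2 share 510 with Exosc9, on the opposite strand. Ints8 averaged 41.9 CPM in Fabp4-Ebf2 fat and 43.7 CPM in wild type, and Exosc9 29.25 and 29.26 CPM. What shared reads contribute to Ccne2 and Ccna2 was not tested.

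Genes of the replication fork varied least between libraries, with a median biological coefficient of variation of 12.7%, the lowest of the 8 roles. The 6 MCM genes encode the subunits of the helicase that opens DNA, and Pcna the clamp that holds polymerases on it. Mcm6 had 46.1, 49.7, 41.0 and 39.5 CPM in Fabp4-Ebf2 fat, against 50.1, 68.1, 48.3 and 48.5 CPM in wild type. Wild type replicates 1, 3 and 4 lay within 48.3 to 50.1 CPM, and Fabp4-Ebf2 replicate 2 lay inside that range, so the groups overlapped in that library (log2 fold change -0.29, SE 0.13, edgeR adjusted p = 0.294). Mcm2 had 27.1, 33.2, 30.4 and 31.4 CPM in Fabp4-Ebf2 fat and 32.3, 42.6, 33.2 and 36.03 CPM in wild type, which gave -0.24 on a log2 scale (SE 0.11). Mcm3 had 39.3, 39.7, 36.9 and 36.5 CPM in Fabp4-Ebf2 fat and 39.9, 55.7, 41.5 and 45.6 CPM in wild type. Its groups did not overlap, although Fabp4-Ebf2 replicate 2 and wild type replicate 1 were nearly level (log2 fold change -0.26, SE 0.11, edgeR adjusted p = 0.256). Mcm5 had 38.8, 42.8, 35.2 and 35.2 CPM in Fabp4-Ebf2 fat and 40.4, 55.4, 43.4 and 45.9 CPM in wild type. In Mcm5 the highest Fabp4-Ebf2 library passed the lowest wild-type one (log2 fold change -0.28, SE 0.11, edgeR adjusted p = 0.234). Mcm4 (-0.13) also had groups that did not overlap, whereas Mcm7 (-0.03) was nearly level. Exons of Mcm7 overlap those of Ap4m1 and Cops6 on the opposite strand in GENCODE M21, and no label says whether the counting used strand. Pcna differed from the rest in its order of libraries, with 26.9, 26.2, 29.2 and 30.3 CPM in Fabp4-Ebf2 fat and 24.2, 29.5, 33.2 and 32.5 CPM in wild type. Its log2 fold change was -0.09 (SE 0.11, 95% interval -0.34 to 0.17).

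Of the enzymes that supply deoxynucleotides, Tk1 came closest to the threshold. Tk1 encodes the cytosolic thymidine kinase of the salvage pathway. It had 6.66, 9.43, 7.05 and 8.59 CPM in Fabp4-Ebf2 fat, against 10.6, 12.9, 10.2 and 10.4 CPM in wild type. All Fabp4-Ebf2 libraries lay below all wild-type ones, including Fabp4-Ebf2 replicate 2, the highest of its group. The Tk1 mean was 7.93 ± 1.30 CPM in Fabp4-Ebf2 fat and 11 ± 1.28 CPM in wild-type fat (SD, n = 4 each). The log2 fold change was -0.47 (SE 0.15, edgeR adjusted p = 0.128). Over 16 other settings its adjusted p ran from 0.0517 (DESeq2) to 0.311 and its log2 fold change from -0.57 to -0.39. Without wild type replicate 2 the adjusted p was 0.196 (edgeR). Tk1 overlaps Afmid on the opposite strand by 83 bases of exon, and Afmid, at 12.6 ± 0.461 CPM in Fabp4-Ebf2 fat and 16.1 ± 2.32 CPM in wild-type fat (SD, n = 4 each), was also lower without overlap (log2 fold change -0.35, edgeR adjusted p = 0.165). What shared reads contribute to Tk1 was not tested. Rrm2, the cell-cycle-regulated subunit of ribonucleotide reductase, had 11.2, 13.5, 11.8 and 10.6 CPM in Fabp4-Ebf2 fat and 14.3, 19.4, 12.6 and 11.5 CPM in wild type. These groups overlapped (log2 fold change -0.30, SE 0.17), and those of Rrm1 (-0.11), its partner subunit, and of the thymidylate synthase gene Tyms (-0.16) did as well.

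Neither of the 2 transcription factors of the set passed the test. E2f1, an activator of S phase genes, had 10.6, 13.6, 7.63 and 9.49 CPM in Fabp4-Ebf2 fat and 12.4, 14.1, 10.4 and 10.9 CPM in wild-type fat (log2 fold change -0.21, SE 0.18, 95% interval -0.62 to 0.20). Foxm1, the activator of mitotic genes, had 9.07, 13.3, 9.76 and 10.02 CPM in Fabp4-Ebf2 fat and 11.03, 14.3, 9.43 and 10.1 CPM in wild type. For both factors replicate 2 was the highest library in each genotype. The log2 fold change of Foxm1 was -0.09 (SE 0.17), and it was 0.048 without wild type replicate 2. Exons of Foxm1 and Tex52 overlap on the same strand, so reads may be shared.

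The proliferation markers were Mki67, the antigen Ki-67, and Top2a, the topoisomerase that untangles DNA before mitosis. Mki67 had 62.3, 78.7, 66.1 and 61.6 CPM in Fabp4-Ebf2 fat and 79.2, 79.2, 72.7 and 71.5 CPM in wild type. Fabp4-Ebf2 replicate 2 reached the wild-type range and the other 3 Fabp4-Ebf2 libraries lay below it (log2 fold change -0.17, SE 0.09, edgeR adjusted p = 0.376). With the most reads of the set, up to 2043 in a library, its counting error was as low as 2.21%. Top2a had 39.1, 52.9, 42.6 and 40.1 CPM in Fabp4-Ebf2 fat and 51.6, 60.6, 29.4 and 44.95 CPM in wild type. Wild type replicate 3 was the lowest of all 8 libraries for Top2a, so its groups overlapped fully (log2 fold change -0.09, SE 0.20).

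**Figure D3:**
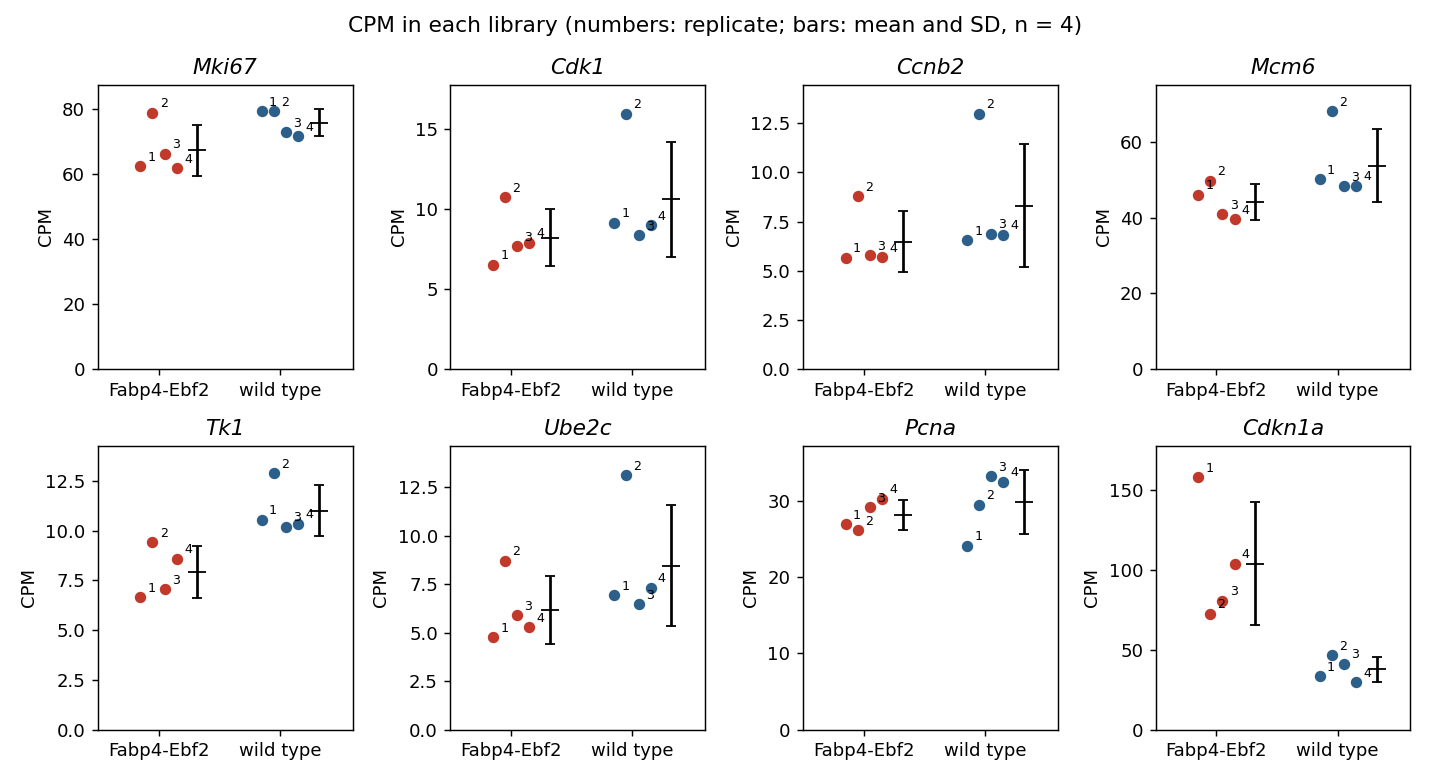
CPM of 7 cell cycle genes and of the Cdk inhibitor gene Cdkn1a in each library, with replicate numbers beside the points and the mean and SD (n = 4) as bars. Replicate 2 lies highest in both genotypes for Cdk1, Ccnb2, Mcm6, Tk1 and Ube2c. For Cdkn1a the Fabp4-Ebf2 libraries lie at 72.5 to 158 CPM, above all wild-type libraries at 29.5 to 46.5 CPM.

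The mitotic kinases and checkpoint genes had a median log2 fold change of -0.26 over 6 genes, with 0 passing. Plk1, a kinase of mitotic entry and spindle assembly, had 5.71, 7.13, 5.20 and 5.77 CPM in Fabp4-Ebf2 fat and 6.56, 10.7, 5.63 and 7.31 CPM in wild-type fat (log2 fold change -0.34 with SE 0.21). Aurka, a kinase of spindle poles, had 5.81, 5.41, 5.55 and 5.28 CPM in Fabp4-Ebf2 fat and 6.14, 8.33, 5.27 and 6.13 CPM in wild type. Its groups met only at the low end, where wild type replicate 3 was level with the lowest Fabp4-Ebf2 library (log2 fold change -0.23, SE 0.16). Bub1b, a spindle checkpoint kinase, had 14.7, 14.8, 10.8 and 13.1 CPM in Fabp4-Ebf2 fat and 14.2, 18.4, 14.6 and 16.95 CPM in wild-type fat (log2 fold change -0.26, SE 0.14). Birc5, the survivin gene of the chromosomal passenger complex, had -0.39, Aurkb, the kinase of that complex, -0.23, and the checkpoint kinase gene Bub1 -0.26 on the same log2 scale. None of these had groups that stood apart.

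Cdc20 and Ube2c, an activator of the anaphase-promoting complex and its ubiquitin-conjugating enzyme, had the highest median biological coefficient of variation of the 8 roles, 23.98%. Cdc20 had 6.52, 9.22, 6.01 and 7.69 CPM in Fabp4-Ebf2 fat and 7.46, 11.6, 7.42 and 8.68 CPM in wild-type fat (log2 fold change -0.26, SE 0.19). Ube2c had 4.77, 8.72, 5.89 and 5.28 CPM in Fabp4-Ebf2 fat and 6.93, 13.1, 6.48 and 7.31 CPM in wild type. Fabp4-Ebf2 replicate 2 lay above 3 of the 4 wild-type libraries, and the log2 fold change was -0.46 (SE 0.27, edgeR adjusted p = 0.415). Exons of Ube2c share 592 bases with Tnnc2, a fast skeletal muscle troponin gene, on the opposite strand. Tnnc2 had 3.68, 18.2, 4.28 and 0.818 CPM in Fabp4-Ebf2 fat and 50.6, 19.6, 18.5 and 20.7 CPM in wild type, without overlap of the groups. Replicate 2 was the highest Fabp4-Ebf2 library for both Tnnc2 and Ube2c, and in wild type Tnnc2 was highest in replicate 1 and Ube2c in replicate 2. The part of shared reads in Ube2c was not tested. The 14 skeletal muscle markers looked at had a median log2 fold change of -2.09, and the sum of their levels was 25.02 to 358.5 CPM in Fabp4-Ebf2 fat and 373 to 1148 CPM in wild-type fat.

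At centromeres and the spindle, Cenpa, the histone H3 variant of centromeres, had 11.8, 14.6, 13.2 and 10.2 CPM in Fabp4-Ebf2 fat and 12.3, 21.97, 12.6 and 13.1 CPM in wild type. Leaving wild type replicate 2 aside, the Cenpa means were 12.5 ± 1.89 CPM (n = 4) in Fabp4-Ebf2 fat and 12.7 ± 0.401 CPM (n = 3) in wild type (SD). That Fabp4-Ebf2 mean still held its own replicate 2, the highest of its group at 14.6 CPM. Cenpe, a centromere motor protein gene, had 7.42, 9.60, 8.09 and 8.63 CPM in Fabp4-Ebf2 fat and 10.6, 11.1, 9.20 and 9.87 CPM in wild type. Only Fabp4-Ebf2 replicate 2 entered the wild-type range of Cenpe (log2 fold change -0.27, SE 0.12, edgeR adjusted p = 0.289). Kif11, the motor that separates spindle poles, had 12.1, 16.5, 13.5 and 12.4 CPM in Fabp4-Ebf2 fat and 14.5, 16.6, 14.8 and 14.8 CPM in wild type. Its 2 replicate 2 libraries were level with each other (log2 fold change -0.15, SE 0.12). Tpx2, a spindle assembly factor gene, had 10.8, 14.6, 10.8 and 10.7 CPM in Fabp4-Ebf2 fat and 13.9, 19.6, 10.8 and 12.0 CPM in wild-type fat (log2 fold change -0.27, SE 0.20). The motor genes of cytokinesis Kif20a and Kif23 had -0.16 each and the spindle protein gene Nusap1 -0.22, with overlapping groups. Exons of Kif20a share 1271 bases with Cdc23 on the opposite strand, and Cdc23 itself was level (log2 fold change 0.00, SE 0.08).

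By role, the excess of wild type replicate 2 over the other wild-type libraries was described as a ratio. The median ratio to the mean of wild type replicates 1, 3 and 4 was 1.69 for the anaphase-promoting complex partners, 1.54 for the cyclins and Cdk1, 1.49 for mitotic kinases and checkpoint genes, and 1.33 each for centromere and spindle genes and for the transcription factors. It was 1.26 for the replication fork, 1.25 for the proliferation markers and 1.24 for deoxynucleotide supply. Over all 36 it was 1.36, from 0.985 for Pcna to 1.92 for Ccnb2, and over all genes tested it was 0.993. No test of the difference between roles was run. Of the genes with a promoter window, the 15 with CHR letters had a median ratio of 1.43 (range 1.06 to 1.92), and the 14 without had 1.29 (range 0.985 to 1.59). The median log2 fold change between genotypes was -0.26 for the genes with CHR letters and -0.27 for those without.

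Compared per kilobase of transcript, which lets genes of different length be set side by side, the replication fork led. Pcna had 18.5 CPM per kb in Fabp4-Ebf2 fat and 19.7 CPM per kb in wild type, Mcm6 15.2 and 18.5, and Mcm3 12.6 and 15.1, in the same order of genotypes. At the other end were Ccnb1 at 0.897 CPM per kb in Fabp4-Ebf2 and 1.26 in wild type, Cenpe at 1.07 and 1.29, and Bub1 at 1.24 and 1.49. Mki67, whose transcript is 10061 bases long, had 6.68 CPM per kb in Fabp4-Ebf2 fat and 7.52 in wild type. Lengths were those of the counted RefSeq transcripts in GENCODE M21.

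Lists of other genes of the pathway gave 0 calls outside the Cdk inhibitors. Of 59 other mitosis genes tested, 0 passed in edgeR, 55 had log2 fold changes below 0 and the median was -0.22. The nearest were Cdc25b, a phosphatase that activates Cdk1 (log2 fold change -0.53, SE 0.14, edgeR adjusted p = 0.0765), and Pttg1, the securin gene, which was on the higher side (0.35, SE 0.12, edgeR adjusted p = 0.161). Of 43 other replication genes 0 passed, 32 were below 0 and the median was -0.12. Among them Lig1, the ligase that joins Okazaki fragments, stood at -0.29 on the log2 fold change scale (SE 0.11, edgeR adjusted p = 0.201), and Rfc1, a clamp loader subunit gene, one of 0.21 (SE 0.08, edgeR adjusted p = 0.203). Wild type replicate 2 was the highest of the 8 libraries for 44 of the 59 mitosis genes and 29 of the 43 replication genes. It was so for 6 of 15 genes of other E2F and DREAM factors, of which 0 passed and whose median was -0.065. There Mybl2, a MuvB partner in dividing cells, had -0.46 (SE 0.18, edgeR adjusted p = 0.234) and Tfdp1, a dimer partner of E2F, -0.13 (SE 0.08). Of 12 G1 cyclins, Cdks and pocket proteins 0 passed and the median was -0.04. Their smallest p-values belonged to Ccnd3, encoding cyclin D3 (log2 fold change -0.30, SE 0.08, edgeR adjusted p = 0.0814), and Cdk6, a D-cyclin kinase gene (0.83, SE 0.27, edgeR adjusted p = 0.140).

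Of 151 other pathway genes tested 1 passed, the Cdk inhibitor gene Cdkn1a, and it rose, where 2.8% of all genes rose. Cdkn1a encodes p21, which blocks cyclin-Cdk complexes and is a classic target of p53. It had 158, 72.5, 80.6 and 104 CPM in Fabp4-Ebf2 fat, against 33.3, 46.5, 41.1 and 29.5 CPM in wild type. Every Fabp4-Ebf2 library lay above every wild-type library, with replicate 2 the lowest among Fabp4-Ebf2 fat and the highest among wild-type fat. The log2 fold change was 1.46 (SE 0.25, edgeR adjusted p = 0.0173), a 2.75-fold difference. In the authors' deposited table it was 1.43 with an FDR of 1.79e-10. The call was lost without wild type replicate 3 or 4 (edgeR adjusted p = 0.0561 and 0.0641), with log2 fold changes of 1.503 and 1.362. Of the 5 remaining inhibitor genes tested 0 passed. Cdkn1c, encoding p57, had the next smallest p, with 18.99, 10.1, 16.1 and 14.2 CPM in Fabp4-Ebf2 fat and 16.6, 19.9, 22.3 and 27.4 CPM in wild-type fat (log2 fold change -0.54, SE 0.21, edgeR adjusted p = 0.218). Of 16 other p53 target genes 0 passed, 8 were above 0, and the median was 0.00. The nearest of these were Gadd45a, a growth arrest gene (log2 fold change 0.60, SE 0.18, edgeR adjusted p = 0.122), and Ei24 (0.33, SE 0.10, edgeR adjusted p = 0.134).

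Markers of lymphocytes, like the cell cycle genes, had their highest mean log2 CPM of each genotype in replicate 2. The order of the remaining libraries was not the same, but several of their means were nearly level. In Fabp4-Ebf2 replicates 1, 3 and 4 the means were 6.65, 6.44 and 6.505 for lymphocyte markers and 3.65, 3.67 and 3.65 for cell cycle genes. In wild type replicates 1, 3 and 4 they were 6.64, 6.65 and 6.77, and 3.87, 3.78 and 3.86, in the same order of lists. All 19 lymphocyte markers in the table were detected in every library although nodes had been removed. Their summed level was 1862 to 2414 CPM in Fabp4-Ebf2 fat and 2138 to 3505 CPM in wild type, where replicate 2 held the 3505 and the other 3 libraries at most 2323. Wild type replicate 2 was the highest of the 8 libraries for 16 of these 19 markers. Fabp4-Ebf2 replicate 2 was the highest of its genotype for 10 of the 19, against 28.7% of all genes tested. Their median log2 fold change was -0.29 with 0 passing (edgeR). The 5 genes listed for germinal centre B cells, which divide rapidly, summed to 137 to 198 CPM in Fabp4-Ebf2 fat and 177 to 277 CPM in wild type, and 0 of them was at 0 in any library. Most of that sum was Fcer2a, encoding CD23, a marker of follicular B cells, at 114 to 165 CPM in Fabp4-Ebf2 fat and 138 to 229 CPM in wild type. Wild type replicate 2 was the highest library for 3 of these 5 genes, while Mybl1 was highest in wild type replicate 4 and S1pr2 in wild type replicate 1. In replicate 2, the list mean of the cell cycle genes on the log2 CPM scale was above that of the 3 other libraries of its genotype by 0.26 in Fabp4-Ebf2 and 0.45 in wild type. For lymphocyte markers the differences were 0.25 in Fabp4-Ebf2 and 0.62 in wild type. The 14 macrophage markers were also higher in replicate 2, by 0.41 in Fabp4-Ebf2 and 0.44 in wild type, and summed to 2271 to 3852 CPM in Fabp4-Ebf2 fat and 2349 to 4298 CPM in wild type. Between genotypes 5 of these 14 macrophage markers were below 0, with a median log2 fold change of 0.07. Adipocyte markers were lower in both replicate 2 libraries, with differences of -0.305 in Fabp4-Ebf2 and -0.53 in wild type, and summed to 30510 to 35460 CPM in Fabp4-Ebf2 fat and 37730 to 49680 CPM in wild type. Between genotypes 9 of the 12 adipocyte markers were below 0, with a median log2 fold change of -0.22. Of them 1 passed, Retn (-0.82, edgeR adjusted p = 0.0276), where 0.62% of all genes were called lower. The 11 adipose progenitor markers were higher in both, by 0.28 in Fabp4-Ebf2 and 0.17 in wild type, and summed to 1339 to 1633 CPM in Fabp4-Ebf2 fat and 1328 to 1839 CPM in wild type. Of these 11, 8 had log2 fold changes below 0, 3 were above 0 and the median was -0.26. The 1 that passed went the other way: Dlk1 was higher in Fabp4-Ebf2 fat without overlap (log2 fold change 1.19, edgeR adjusted p = 0.0362). Of all genes tested 2.8% were called higher. The 10 endothelial markers differed by 0.215 in Fabp4-Ebf2 replicate 2 and by -0.07 in wild type replicate 2, and all 10 had log2 fold changes below 0, with a median of -0.23 and 0 passing (edgeR). Skeletal muscle markers differed by 2.27 in Fabp4-Ebf2 replicate 2, the highest of its genotype for 13 of 14 markers, and by -0.52 in wild type replicate 2. The part of any of these cell types in the levels of the cell cycle genes was not tested.

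**Figure D4:**
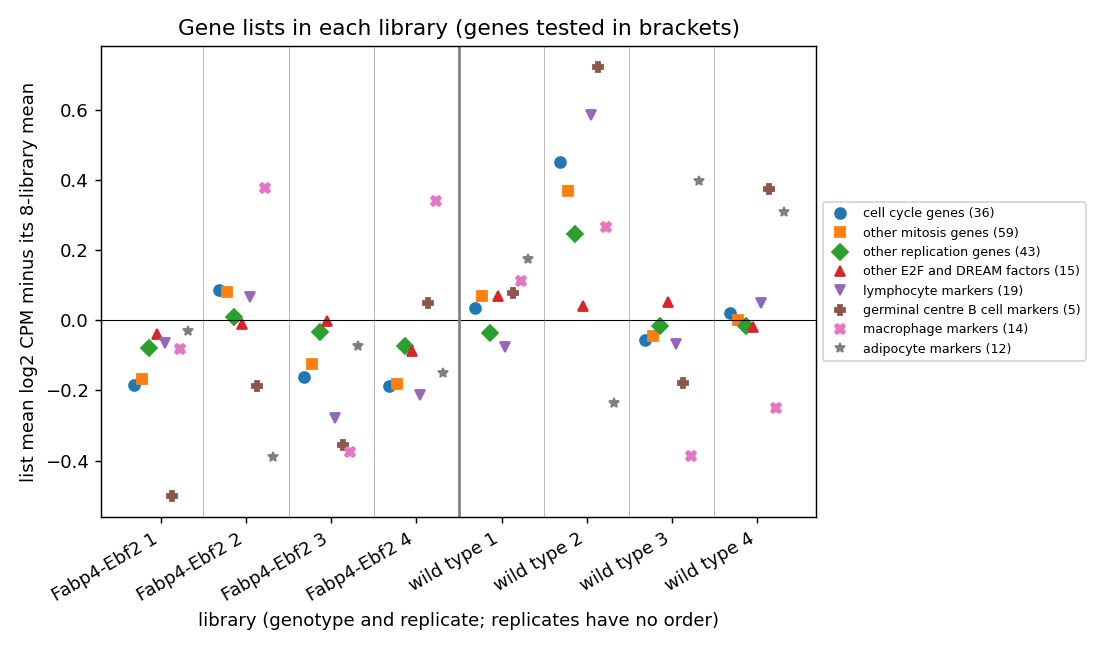
Mean log2 CPM of each gene list in each library, minus the list's mean over the 8 libraries, with the number of genes tested in brackets. The cell cycle genes, other mitosis genes, other replication genes and lymphocyte markers are all highest in wild type replicate 2, where adipocyte markers are the lowest of the wild-type libraries.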

How the data were processed

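Polyadenylated RNA of inguinal fat was sequenced from 4 Fabp4-Ebf2 and 4 wild-type samples. Read counts of 28644 RefSeq transcripts were deposited by the authors, and the submitters' processing notes name mm9 and edgeR. The aligner, the counting program and any strand setting were not given in the sources used here. The table also held the authors' edgeR log2 fold change and, per the file headers, an FDR, an adjusted p-value. A further 8 per-sample columns were not used.

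Each gene was represented by the transcript marked as best (30 of the 36 genes) or by that with most reads (6 genes). Tests used filterByExpr, TMM (factors 0.941 to 1.07), glmQLFit and glmQLFTest of edgeR 4.0.16 under R 4.3.3, with a term for genotype alone and p-values adjusted by Benjamini-Hochberg. CPM values are TMM-scaled. List means used log2 CPM with a prior count of 2. A standard error was taken from the F statistic (size of the fold change over root F). The procedure was tested on simulated counts. The biological coefficient of variation was 18.7% overall and 17.1% in the median of the 36 genes, with a median of 258 reads per gene and library.

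The genes, lists and tests were chosen with earlier results of these data known. Values per library were given for 20 named genes, the 4 with the smallest p, and in other lists for genes past the threshold or with the 2 smallest p-values. Any further gene was picked with its values in view. Alternatives were DESeq2 1.42.0, voom of limma 3.58.1, other normalisation, filters and transcript choice, a replicate block, and each library left out. Promoter windows and gene overlaps came from GRCm38, not the build of the counts. Figures were drawn with matplotlib 3.10.9.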

Additional observations from a re-analysis of the deposited data

Results flagged for a closer look

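Among 72 groups of 4 libraries (36 genes in 2 genotypes), 12 single libraries stood apart from the rest of their group by more than Dixon's 95% critical value for the gap over the range. Chance alone gives about 1 in 20 groups, and the genes share libraries. Of the 12, 7 were wild type replicate 2, each time the highest: Ccnb2 at 13.0 CPM, Cdk1 at 16.0, Mcm6 at 68.1, Tk1 at 12.9, Ube2c at 13.1, Cenpa at 21.97 and Kif11 at 16.6 CPM. Fabp4-Ebf2 replicate 2 stood above its group for Ccnb1 (2.68 CPM), Ccnb2 (8.80 CPM) and Tpx2 (14.6 CPM). Fabp4-Ebf2 replicate 1 was low for Ccne1 at 10.5 CPM, and Fabp4-Ebf2 replicate 4 was low for Rrm1 at 36.4 CPM.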

How the results depend on the processing

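In all 16 alternatives 0 of the 36 cell cycle genes passed and their median log2 fold change was negative, from -0.30 without Fabp4-Ebf2 replicate 2 or wild type replicate 3 to -0.11 without wild type replicate 2. The only sign changes among the 23 genes followed through the alternatives were Top2a (0.055) and Foxm1 (0.048) without wild type replicate 2, neither past the test. When single libraries were left out their lowest values were -0.265 for Top2a and -0.234 for Foxm1. With library totals alone the median of all genes was -0.06 and that of the cell cycle genes -0.29. Counts over all genes moved more, with 513 called, 1200 by DESeq2, and 116 to 918 when single libraries were left out (edgeR). Of the wider pathway lists 1 gene was called, against 5 by DESeq2 (Cdkn1a, Ccnd3, Cdc25b, Cdk6 and Gadd45a) and 0 to 5 when single libraries were left out. The causes of these moves were not tested. With the replicate block 598 genes passed, 0 of them among the 36, and 2 in the pathway lists (Cdkn1a and Cdc25b). The labels state no pairing, although the sample descriptions are numbered alternately by genotype, so that libraries of the same replicate number are consecutive. Deviations of libraries of the same replicate number correlated at -0.133, 0.331, 0.142 and 0.0574 across genes, so not every pair moved together. Libraries of different replicate numbers correlated at -0.333 to 0.178. The lowest count of a gene in a library was 36 reads for Ccnb1, 74 for Bub1 and 90 for Plk1, and how far depth limited the calls was not tested.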

Other observations

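Ebf2 itself was lowest in replicate 2 of both genotypes, the libraries in which the cell cycle genes were highest. It had 499, 231, 575 and 447 CPM in Fabp4-Ebf2 replicates 1 to 4 and 37.0, 14.9, 30.3 and 29.4 CPM in wild type. Fabp4-Ebf2 replicate 2 had 0.455 times the mean of the other Fabp4-Ebf2 libraries, and wild type replicate 2 had 0.463 times that of the other wild-type libraries. Low levels in replicate 2 were not particular to Ebf2. Over the 12 adipocyte markers the median of this ratio was 0.798 in Fabp4-Ebf2 and 0.707 in wild type. The lowest ratios of the 12 were those of Lep, 0.4525 and 0.4638 in the same order. Cfd and Retn went the other way in Fabp4-Ebf2, where replicate 2 lay above the mean of the other libraries. The 10 endothelial markers had list means of 6.16, 6.40, 6.27 and 6.12 log2 CPM in Fabp4-Ebf2 and 6.33, 6.38, 6.48 and 6.57 log2 CPM in wild type.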
